A study of Homo sapiens with 90 samples.

Results

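Fenbuconazole and imazalil are azole fungicides that were each given at 10 µM to A673 cells, a line from an Ewing sarcoma with the EWSR1-FLI1 fusion gene. The arrays described here are the 6 at 10 µM, 3 of fenbuconazole and 3 of imazalil, out of 90 in the series. They were set against the 48 arrays at the 8 lower concentrations of the same azoles, and the question was which transcripts moved the same way in both. The arrays were chosen by their labels alone. Fenbuconazole is a triazole and imazalil an imidazole, so that their azole rings differ in the number of nitrogens.

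A673 cells were plated at 26000 per well and exposed for 24 h to fenbuconazole, imazalil or 2,4-D (2,4-dichlorophenoxyacetic acid, an auxin-like herbicide) at 9 concentrations, the 8 lower ones spread from 0.001 to 3 µM in roughly even steps on a log scale and the highest 10 µM. Every group held 3 arrays, all wells shared the vehicle at 0.2% DMSO, and no other agent was added. The cells are 1 line in culture, so that the replicates are batches of the same cells and not of different donors. Values are log2 expression per probe set on an array with perfect-match probes, normalized by the authors within each chemical's set, and 54613 probe sets were tested.

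Azole fungicides block the fungal lanosterol 14-alpha-demethylase, a cytochrome P450 whose human counterpart is CYP51A1. Human cells sense a shortage of sterols through SCAP and INSIG1 and then release SREBF2, which raises the enzymes of cholesterol synthesis. The transcription factor ATF4 raises genes that make, import and charge amino acids when amino acids run short or the endoplasmic reticulum is stressed. EGR1 is an immediate early transcription factor that the ERK kinase cascade induces, and TXNIP and ARRDC4 are arrestins whose genes respond to glucose through MondoA and MLX.

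The 10 µM arrays did not stand apart in overall signal. Array medians at 10 µM lay between 2.79 and 2.82 in fenbuconazole, against 2.76 to 2.83 at the lower concentrations, and between 3.34 and 3.38 in imazalil, against 3.34 to 3.39. The 3′ minus 5′ signal of ACTB, a measure of RNA quality, lay between 0.31 and 0.36 at 10 µM fenbuconazole and between 0.41 and 0.53 at 10 µM imazalil. Fenbuconazole at 0.01 µM, replicate 1, stood highest on that measure at 0.87. The number of calls for the pooled azoles was 130 with and without it, and 121 probe sets were called in both fits. Of the markers of an Ewing sarcoma line, 9 were measured and lay at or above the 90.9th percentile of all probe sets in the imazalil set. The 12 hepatocyte markers lay between the 7.71st and 63.7th percentile, ALB at the 25.2nd, and the 12 breast epithelial markers between the 21.8th and 98.0th, with KRT18 and XBP1 above the 95th percentile and EPCAM and CDH1 at the 41.7th and 27.1st. Of these marker lists 0 members were called. The run number in the labels fell with rising concentration in each replicate, so that 10 µM held the lowest of 9 run numbers in all 3 chemicals. Run position and concentration cannot be told apart in these data, and 2,4-D at 10 µM held the same position as the azoles. The labels give the DMSO columns as common to the 3 sets, but those of the fenbuconazole set correlated at only 0.11 to 0.20 with the same-numbered columns of the other sets after each set's mean was subtracted, against 0.87 to 0.88 between imazalil and 2,4-D. The comparison was set without DMSO arrays, and the DMSO columns were kept out of every test given here except a stated alternative.

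At 10 µM, 130 of 54613 probe sets differed from the lower concentrations in the pooled azoles (limma with chemical set by replicate number as a block, Benjamini-Hochberg adjusted p under 0.05), which is 0.238% of those tested. Of these, 87 fell (0.159%) and 43 rose (0.0787%), and they named 97 genes, 63 lower and 34 higher. The changes were small, between 0.16 and 0.58 in size on the log2 scale. The probe sets that fell had a median change of -0.30, with -0.39 in fenbuconazole and -0.20 in imazalil, and those that rose had a median of 0.25, with 0.28 and 0.21. Most of the largest decreases were in genes of the amino acid response, in EGR1 and in TXNIP, and the largest increases held INSIG1 among genes with no common role. Changes below are log2 differences between 10 µM and the 8 lower concentrations unless stated otherwise.

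The pooled count was 51 or 55 without fenbuconazole 10 µM replicate 2 or replicate 3, and 17 or 48 without replicate number 2 or 3 in all sets. Without replicate number 1 in all sets it was 107, of which 53 were among the 130. All 130 kept their sign in each of these fits.

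**Figure D1:**
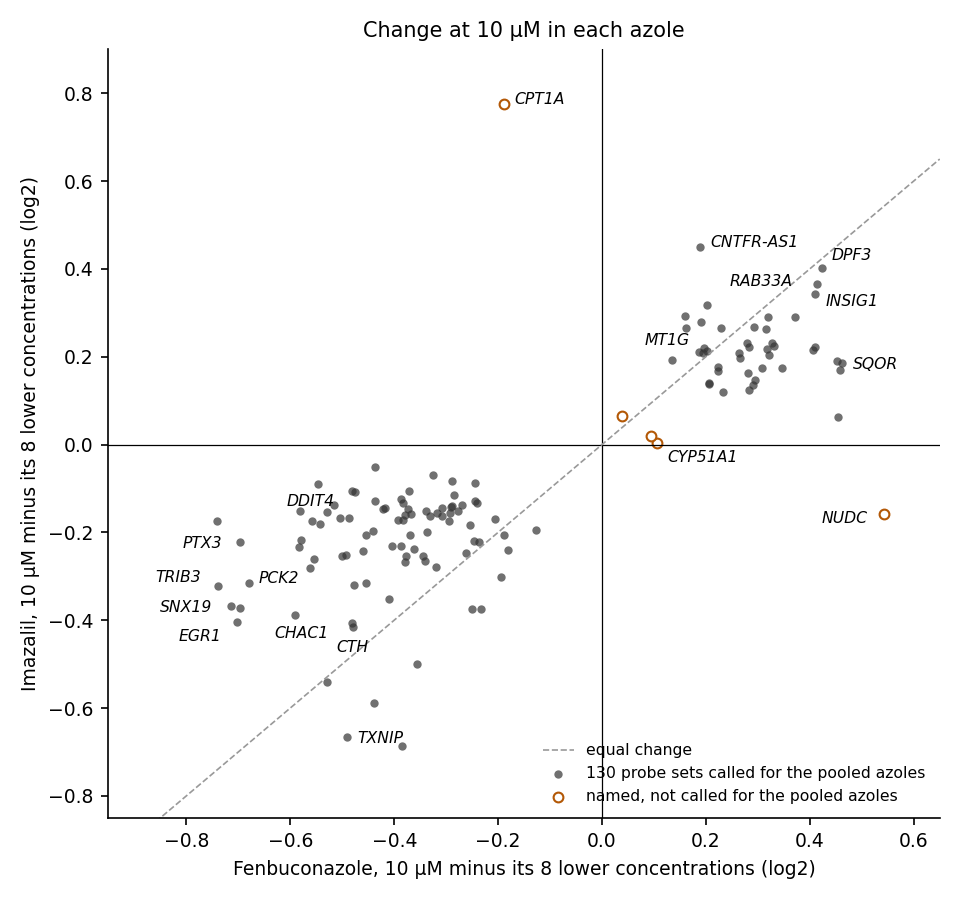
Change at 10 µM in fenbuconazole (x axis) and in imazalil (y axis), each minus its own 8 lower concentrations, on the log2 scale. Filled points are the 130 probe sets called for the pooled azoles, all of them in the lower left or upper right quadrant, open points are 5 named probe sets that were not called, and the dashed line marks equal change. For 108 of the filled points the change is larger in fenbuconazole, and TXNIP is among the rest.

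All 130 had the same sign in both azoles. The pooled test favours such probe sets, so this count is a description and not a test of agreement. The change was larger in fenbuconazole for 108 of the 130, and 100 had an unadjusted p under 0.05 for each azole's own change (62 lower, 38 higher). In 105 of them all 6 arrays at 10 µM lay on the same side of the mean of the lower arrays of their own set and replicate, which held for 4.33% of all probe sets. Of the 105, 66 were lower (2.37% of all) and 39 higher (1.97%). The pooled test picked the 130 on these same arrays, so the counts of 100 and 105 are descriptions as well. The shares of all probe sets beside them are no test. In a joint limma fit of both azoles with 1 coefficient for each, fenbuconazole gave 154 calls (0.282%) and imazalil 15 (0.0275%), of which 6 were lower (0.011%). Of the 130, 84 were also called for fenbuconazole, 5 for imazalil and 46 for neither. The 5 called for each azole in that fit were 3 probe sets of TXNIP and 2 of EGR1. A stricter test, which takes the larger p of both azoles and adjusts it over all probe sets, called 0 (305 had an unadjusted larger p under 0.05, and the smallest adjusted p in limma was 0.0523, for EGR1). With other settings of that test up to 2 probe sets passed, all of them EGR1.

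EGR1 had the smallest adjusted p of all probe sets in the pooled test. At 10 µM fenbuconazole its arrays read 7.25, 7.15 and 7.54, against a lowest, median and highest of 7.69, 8.02 and 8.47 over the 24 lower arrays. At 10 µM imazalil they read 8.71, 8.83 and 8.94, against 8.98, 9.19 and 9.36. Neither azole's 10 µM arrays overlapped with the lower ones. The pooled change was -0.53 (SE 0.05, adjusted p = 1.31e-09 in limma), with -0.70 in fenbuconazole and -0.37 in imazalil. A second EGR1 probe set, at -0.55, was likewise free of overlap in both azoles, and 1 more fell by 0.53. Only 3 probe sets in the whole table (0.00549%) had no overlap in both azoles in the same direction, these 2 of EGR1 and 1 without a gene symbol that rose by 0.23, while 84 (0.154%) had none in fenbuconazole and 59 (0.108%) in imazalil. The DMSO columns read 7.94, 7.92 and 8.10 in the fenbuconazole set and 8.94, 9.16 and 9.33 in the imazalil set.

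Other genes of the ERK cascade's output leaned the same way but mostly without a call. Of 18 measured ETS factors and feedback inhibitors, 16 were lower and 2 were called, with a median change of -0.16, while over all 19774 genes the median was -0.003 and 0.268% were called lower. ETV5, an ETS factor that ERK induces, fell by 0.34 and 0.32 in its 2 probe sets (adjusted p = 0.0037 and adjusted p = 6.13e-06, limma). Its arrays with the larger change read 6.25, 6.19 and 6.66 at 10 µM fenbuconazole against 6.59 to 7.34 at the lower concentrations, and 7.70, 7.84 and 7.71 at 10 µM imazalil against 7.72 to 8.12, with 4 and 3 of the 24 lower arrays inside the range of the 10 µM arrays. SPRY2, a feedback inhibitor of receptor signalling, fell by 0.26 (adjusted p = 0.0485). ETV4 stood at -0.32 and SPRED3 at -0.26 and were not called (adjusted p = 0.0576 and adjusted p = 0.149), and DUSP6 stood at -0.16. SPRY2 lost its call without any single 10 µM array other than imazalil replicate 3, and the list had 1 call in those fits and 3 without imazalil replicate 3. Among 21 immediate early factors 17 were lower and 2 were called, EGR1 and ATF3. EGR3, a relative of EGR1, stood at -0.32 (adjusted p = 0.138) and JUN at -0.17, whereas FOS stood at 0.08 and MYC at 0.04.

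TXNIP, an arrestin that binds thioredoxin and restrains glucose uptake, had the largest change of any called probe set and was larger in imazalil than in fenbuconazole. Its arrays at 10 µM read 5.54, 5.93 and 5.01 in fenbuconazole, against 5.62, 6.01 and 6.43 (lowest, median and highest) at the lower concentrations, and 6.38, 6.65 and 6.41 in imazalil, against 6.79, 7.16 and 7.61. The imazalil arrays did not overlap with the lower ones, and in fenbuconazole 10 of 24 lower arrays were at or below the highest of the 10 µM arrays. The pooled change was -0.58 (SE 0.08, adjusted p = 2.56e-06 in limma), with -0.49 in fenbuconazole and -0.67 in imazalil, and 2 further probe sets fell by 0.54 and 0.51. The difference between the azoles was 0.17 (95% interval -0.12 to 0.47) and was not called.

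ARRDC4, the arrestin nearest to TXNIP in its control by glucose, fell by 0.38 (SE 0.08, adjusted p = 0.0186), with -0.41 in fenbuconazole and -0.35 in imazalil. Its 10 µM arrays read 4.01, 3.85 and 3.61 in fenbuconazole against 3.84 to 4.73, and 4.59, 4.54 and 5.07 in imazalil against 4.54 to 5.37, so that both overlapped. 2,4-D at 10 µM had a change of -0.31 for the same gene. All 6 measured genes of this small group were lower, 2 of them called, with ARRDC3 at -0.12 and the sensors MLXIP and MLX at -0.02 and -0.03. Over all genes the share called lower was 0.268%. Without fenbuconazole replicate 2 or 3, or imazalil replicate 1 or 2, ARRDC4 lost its call and the group kept 1. The ARRDC4 promoter (RefSeq, GRCh38.p14, chr15:97960473-97960518, plus strand) holds the E-box CACGTG, the core of the element that MLX partners bind, shown in capitals because ARRDC4 is known for this control, while the letters were not found in the same window of TXNIP:
ARRDC4: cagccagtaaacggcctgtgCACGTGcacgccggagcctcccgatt
Over 250 bases before the start, read on both strands, CACGTG stood in 6.49% of all 27305 promoters, in 7 of 54 of called genes that fell (13%) and in 1 of 26 that rose (3.85%), which is a description of letters and not of binding.

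The regulators of the amino acid response were lower as a group. All 16 measured members had a negative pooled change, 7 were called and the median was -0.20, with -0.27 in fenbuconazole, -0.11 in imazalil and -0.06 in 2,4-D. Of all 19774 genes, 10209 had a negative change and 53 were called lower (0.268%). The list was written with earlier results of these data known, so its direction is not independent evidence. The count of 7 was the same with each of the 6 arrays at 10 µM left out. The gene for ATF4 itself stood at -0.08 (adjusted p = 0.42), DDIT3, a pro-apoptotic factor downstream of ATF4, at -0.11 (adjusted p = 0.429) and PPP1R15A at -0.10.

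TRIB3, a pseudokinase that ATF4 induces and that feeds back on it, fell by 0.53 (SE 0.06, adjusted p = 2.02e-08). Its arrays read 7.0, 7.30 and 7.0 at 10 µM fenbuconazole, against 7.37, 7.77 and 8.29 (lowest, median and highest) at the lower concentrations. At 10 µM imazalil they read 8.38, 8.65 and 8.24, against 8.33, 8.70 and 9.11. There was no overlap in fenbuconazole and overlap in imazalil, where each array nonetheless stood 0.30 to 0.37 below the lower arrays of its own replicate. CHAC1, which cleaves glutathione, fell by 0.49 (SE 0.06, adjusted p = 3.62e-07), with arrays at 5.27, 5.66 and 4.93 in fenbuconazole against 5.6 to 6.12, and at 6.06, 6.27 and 5.75 in imazalil against 6.12 to 6.68. Each of the 6 arrays stood at least 0.29 below the lower arrays of its replicate.

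The other called regulators fell by less. SESN2, a leucine sensor that restrains mTORC1, fell by 0.39 (0.45 and 0.32 in the separate azoles), STC2, a secreted stanniocalcin, by 0.40, JDP2, a repressor of AP-1, by 0.38, DDIT4, another brake on mTORC1, by 0.37 and ATF3 by 0.33. In the probe sets with these changes, all 6 arrays at 10 µM were lower for each of these 5 genes, and each kept its call without any single 10 µM array. Without a whole replicate number in all sets, SESN2 lost its call for number 2, STC2 for number 1, and JDP2 and ATF3 for number 3, and only DDIT4 of the 5 kept it for each. A second called probe set of SESN2 lost its call without fenbuconazole replicate 1 or 2 or imazalil replicate 3. One of STC2 lost its call without any single fenbuconazole array at 10 µM or imazalil replicate 1. A second probe set of JDP2 stood at 0.02 and was not called. ATF5, a factor related to ATF4, was in none of the lists and is named after its values were seen: its 2 probe sets fell by 0.33 and 0.26. The former lost its call without any single fenbuconazole array at 10 µM, imazalil replicate 3 or any replicate number. The latter lost its call without fenbuconazole replicate 2 and without replicate number 2 or 3.

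The promoters of ASNS, ATF3 and CHAC1 hold TGATGNAA, the composite element that ATF4 binds with CEBP partners. They are shown because they were the called genes with known ATF4 control that held it, in 48-base windows on the gene's strand with the element in capitals (RefSeq, GRCh38.p14), and the CHAC1 element reads on the opposite strand. The windows lie at chr7:97872449-97872496 (minus), chr1:212565196-212565243 (plus) and chr15:40953242-40953289 (plus):
ASNS: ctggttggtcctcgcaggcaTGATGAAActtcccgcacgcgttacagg
ATF3: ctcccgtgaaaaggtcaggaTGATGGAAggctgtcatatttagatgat
CHAC1: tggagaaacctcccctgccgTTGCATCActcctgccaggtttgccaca
The letters stood in 4 of 54 promoters of called genes that fell (7.41%), in 0 of 26 of those that rose and in 3.19% of all promoters. No test was made, and absence from this window says only that these letters are not there.

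Enzymes that make amino acids moved with the regulators. All 13 measured enzymes of amino acid synthesis and one-carbon metabolism were lower, 5 were called and the median was -0.23. Over all genes the share called lower was 0.268%. PCK2, the mitochondrial enzyme that makes phosphoenolpyruvate, fell by 0.50 (SE 0.06, adjusted p = 1.36e-06). Its arrays read 6.09, 6.13 and 5.79 at 10 µM fenbuconazole, against 6.15, 6.61 and 7.18, and 6.74, 7.06 and 6.80 at 10 µM imazalil, against 6.82, 7.12 and 7.67, with no overlap in fenbuconazole only. CTH, which makes cysteine, fell in both of its probe sets. The pooled change was -0.45 in one, with -0.48 in fenbuconazole and -0.41 in imazalil, and -0.41 in the other, with -0.55 and -0.26. ASNS, the asparagine synthetase, fell by 0.37 (SE 0.05, adjusted p = 5.84e-06), from a median of 10.26 to 9.81, 9.80 and 9.80 in fenbuconazole without overlap, and from 10.76 to 10.52, 10.65 and 10.46 in imazalil with it. Its other probe set stood at -0.02.

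Later steps of the serine pathway also held calls. PSAT1, which makes phosphoserine, fell by 0.29 and MTHFD2, a mitochondrial folate enzyme, by 0.27. PHGDH, the first enzyme of that pathway, stood at -0.05 and SHMT2 at -0.03, both far from a call. PSPH stood at -0.29 with 1 of 6 arrays higher, and was not called. Without fenbuconazole replicate 2 the enzyme list had 3 calls, and PSAT1 also lost its call without fenbuconazole replicate 3. The MTHFD2 probe set with the change given here lost its call without any single fenbuconazole array at 10 µM or imazalil replicate 1. Another called MTHFD2 probe set lost its call, among the single arrays, only without fenbuconazole replicate 2. Leaving out replicate number 2 in all sets took the calls of CTH, ASNS, PSAT1 and MTHFD2, and leaving out number 3 those of PSAT1 and MTHFD2. A probe set each of CTH and MTHFD2 also lost its call without number 1. Only PCK2 of the called enzymes kept its call without each replicate number.

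Transporters and tRNA synthetases showed smaller differences. Of 11 amino acid transporters 10 were lower, with a median of -0.09, and 2 were called by any of their probe sets, against 0.319% of all genes called lower on that basis. They were SLC7A11, the cystine importer (-0.32, -0.28 and -0.20 in 3 probe sets), and SLC7A1, which imports arginine (-0.30), and only SLC7A11 was called on the probe set with the highest mean. Of 17 cytosolic tRNA synthetases 15 were lower, with a median of -0.06, and the called members were WARS1 (-0.21) and CARS1 (-0.23), for tryptophan and cysteine, of which only WARS1 was called on the probe set with the highest mean. Neither list had a call without fenbuconazole replicate 2, and each had 1 without imazalil replicate 3, as had the synthetases without fenbuconazole replicate 1. Chaperones and regulators of the endoplasmic reticulum, the other branches of the stress response that shares ATF4, had 0 calls among 20, with HSPA5 at -0.06, XBP1 at -0.16 and a median of -0.03.

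**Figure D2:**
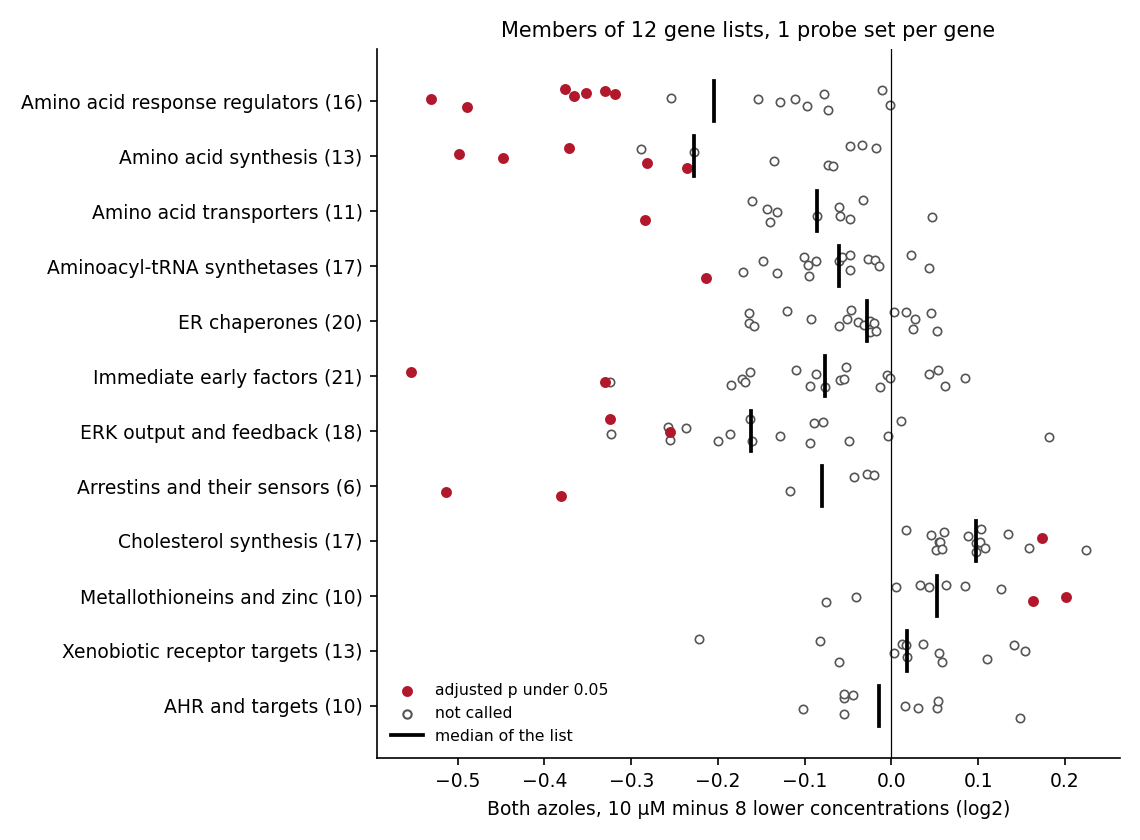
Pooled change at 10 µM (log2) of each measured member of 12 gene lists, 1 probe set per gene, with the number measured in brackets. Red points are members whose probe set had an adjusted p under 0.05, open points those without, black bars list medians, and vertical offsets only separate points. All members of both topmost lists lie below 0 and all 17 cholesterol synthesis genes above it.

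Cholesterol genes stood on the other side. All 17 measured enzymes of cholesterol synthesis had a positive pooled change, with a median of 0.10 (0.13 in fenbuconazole, 0.05 in imazalil and 0.04 in 2,4-D), and 1 was called on the probe set with the highest mean, LSS, against 0.0961% of all genes called higher on that basis. By any of their probe sets 3 were called, against 0.172% of all genes. DHCR7, the last step towards cholesterol, rose by 0.21 (adjusted p = 0.0179), IDI1, which isomerizes the isoprene unit, by 0.18 (adjusted p = 0.0443), and LSS, the lanosterol synthase just before the azole target, by 0.17 (adjusted p = 0.034). The list had 0 calls without fenbuconazole replicate 2 or 3 and 1 without imazalil replicate 2.

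INSIG1, the sterol-sensitive anchor of SCAP and a target of SREBF2, rose by 0.38 (SE 0.06, adjusted p = 7.69e-04). Its arrays read 5.82, 6.31 and 5.82 at 10 µM fenbuconazole, against 5.13, 5.59 and 6.0 (lowest, median and highest) at the lower concentrations, and 7.20, 7.33 and 7.23 at 10 µM imazalil, against 6.62, 6.96 and 7.25. The groups overlapped by 3 of 24 lower arrays in fenbuconazole and 1 in imazalil, and each of the 6 arrays stood at least 0.25 above its own replicate. A second probe set rose by 0.28 and another, at 0.19, was not called (adjusted p = 0.214). INSIG1 kept its call with each 10 µM array left out but not without replicate number 2.

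CYP51A1, the human counterpart of the fungal target, was not called. Its arrays read 9.01, 9.26 and 9.01 at 10 µM fenbuconazole against 8.51 to 9.16, and 9.69, 9.84 and 9.93 at 10 µM imazalil against 9.6 to 9.96, which overlapped. The pooled change was 0.05 (95% interval -0.04 to 0.15) and its other probe set stood at -0.09. HMGCS1 stood at 0.05 and SQLE at 0.06, both enzymes of cholesterol synthesis under SREBF2 control, and neither was called. The letters TCACNCCAC, a sterol regulatory element, stood on either strand in 0 of 15 promoters of the cholesterol synthesis genes over 250 bases before the start, in 0 of 26 of called genes that rose and in 0.875% of all promoters, which says only that these letters are not in those windows.

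Among other genes that rose, few shared a known role. DPF3, a chromatin remodelling subunit, rose by 0.41 (adjusted p = 0.0157) in 1 probe set, while its 3 others stood between -0.04 and 0.002. RAB33A, a small GTPase of vesicle transport, rose by 0.39 (SE 0.07, adjusted p = 0.00418), with arrays at 4.40, 4.13 and 4.08 in fenbuconazole against 3.34 to 4.18, and at 4.94, 5.28 and 5.48 in imazalil against 4.57 to 5.35. SQOR, the mitochondrial enzyme that oxidizes hydrogen sulfide, rose by 0.32 (SE 0.06, adjusted p = 0.0014). Its arrays read 7.15, 7.17 and 7.26 at 10 µM fenbuconazole, all above the lower range of 6.44 to 6.98, and 7.82, 7.69 and 7.64 at 10 µM imazalil, within the lower range of 7.14 to 7.93.

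CCK, the cholecystokinin gene, which the EWSR1-FLI1 fusion raises in Ewing sarcoma, rose by 0.32 (SE 0.05, adjusted p = 7.40e-04), and 2,4-D had 0.19 for it. It was the 1 called gene of 19 measured that the fusion raises, and LOX, at -0.29 and -0.24 in 2 probe sets, the 1 called of 17 that it lowers. Over all genes, 0.0961% were called higher and 0.268% lower with 1 probe set per gene. RET, a receptor kinase, rose by 0.26, VANGL2, a planar polarity protein, by 0.28, GRAMD1B, a carrier of cholesterol between membranes, by 0.31 and the phosphatase gene DUSP22 by 0.31. The receptor ADGRF1 (0.32), the antisense transcript CNTFR-AS1 (0.32), SRSF11 (0.31), RIMS1 (0.29), RANBP3 (0.28) and DRC12 (0.26) completed the named increases. The other probe sets of ADGRF1, CNTFR-AS1, SRSF11, RIMS1, RANBP3 and DUSP22 lay between -0.07 and 0.10, and those of RET at 0.15 and 0.21 without a call. SQOR and CCK kept their calls with each 10 µM array left out but not without replicate number 2, and DPF3, RAB33A and the genes named after CCK, LOX among them, each lost theirs without at least 1. Of the 43 probe sets that rose, 15 lay below the median level of an azole set, against 2 of the 87 that fell.

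Metallothioneins, which bind zinc and copper, held 2 calls of 10 genes measured in their list, against 0.0961% of all genes called higher with 1 probe set per gene, MT1G at 0.20 (adjusted p = 7.40e-04) and MT1F at 0.16 (adjusted p = 0.0162). Their probe sets can match several members of this near-identical family, so that which gene moved is uncertain. The list had 1 call without fenbuconazole replicate 3 or imazalil replicate 1 or 2. Without replicate number 2 or 3 in all sets neither MT1G nor MT1F kept its call, and MT1F also lost it without number 1. SLC6A6, the taurine transporter, and SGK1, a kinase of salt and stress responses, were outside the lists and are named after their values were seen. SLC6A6 rose by 0.24 (SE 0.04, adjusted p = 6.88e-05) and SGK1 by 0.25 (SE 0.04, adjusted p = 1.63e-04). SGK1 lost its call without replicate number 2, and SLC6A6 kept its call without each number.

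Several of the larger decreases stood outside these groups. PTX3, a secreted pattern recognition protein, fell by 0.46 (SE 0.10, adjusted p = 0.026), with -0.70 in fenbuconazole and -0.22 in imazalil, and 2,4-D had a change of -0.58. SNX19, a sorting nexin, fell by 0.54 and PDE4D, a phosphodiesterase, by 0.40 in 1 probe set each, while the other probe sets of SNX19 lay between -0.07 and -0.01 and those of PDE4D between -0.12 and 0.05. LINC00662, a long noncoding RNA, fell by 0.46 in 1 probe set, with -0.74 in fenbuconazole and -0.17 in imazalil, and its other probe sets lay between -0.08 and 0.01. PTX3 and LINC00662 lost their calls without any 1 of the 3 fenbuconazole arrays, SNX19 without fenbuconazole replicate 1 or 3 or imazalil replicate 2, and PDE4D without fenbuconazole replicate 2 or 3.

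2,4-D at 10 µM, at the same place among the run numbers and against its own 8 lower concentrations, gave 0 calls in limma (3199 had an unadjusted p under 0.05, and the smallest adjusted p was 0.084). Of the 130 azole calls, 96 had the same sign in 2,4-D and 16 an unadjusted p under 0.05 there. The median 2,4-D change was -0.08 over the probe sets that fell in the azoles and 0.00 over those that rose. Of the lists, 12 of 16 regulators and 11 of 13 enzymes of the amino acid response were below 0 in 2,4-D as well. Of 18 genes of the ERK cascade's output, 16 of them lower in the azoles, 12 were below 0 in 2,4-D. Of 17 cholesterol enzymes, all above 0 in the azoles, only 5 were below 0 in 2,4-D, so that most moved the same way there.

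The mean change of both azoles differed from that of 2,4-D for 4 probe sets (0.00732%), all lower in the azoles. They were EGR1 (-0.50, 95% interval -0.64 to -0.35, adjusted p = 1.12e-04, and -0.50 in a second probe set, adjusted p = 0.0424), DDIT4 (-0.43, interval -0.57 to -0.29, adjusted p = 6.90e-04) and CHAC1 (-0.49, interval -0.68 to -0.30, adjusted p = 0.0424). In 2,4-D the arrays of EGR1 read 9.12, 9.14 and 9.39 against 9.06 to 9.47 at its lower concentrations, those of CHAC1 6.77, 6.69 and 6.25 against 6.13 to 7.07 and those of DDIT4 8.01, 8.09 and 7.68 against 7.52 to 8.21, all within the lower range. TXNIP (-0.45, interval -0.71 to -0.19), INSIG1 (0.45, interval 0.24 to 0.66) and TRIB3 (-0.35, interval -0.52 to -0.19) were not called in this contrast. For PTX3 (0.12, interval -0.22 to 0.45), ARRDC4 (-0.07, interval -0.34 to 0.20), ETV5 (-0.08) and JDP2 (-0.14) the intervals held 0. The contrast had 2 calls without imazalil replicate 1 and 0 without replicate number 2, without the block or with the block as a random effect. Without replicate number 1 it had 2 calls, TAT and HAP1, and 0 of the 4 given here. Without replicate number 3 it had 2, of which 1, of EGR1, was among the 4.

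**Figure D3:**
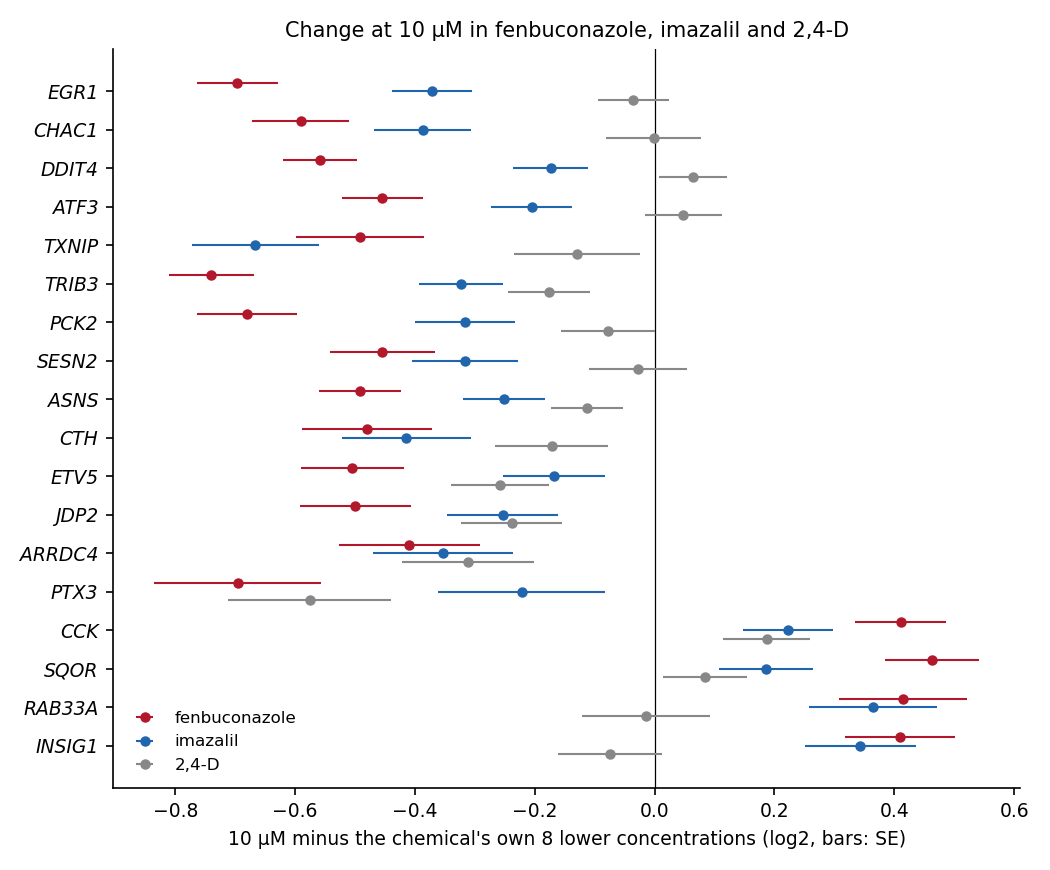
Change at 10 µM minus each chemical's own 8 lower concentrations (log2) for 18 named genes in fenbuconazole, imazalil and 2,4-D, with bars of 1 SE from limma. For EGR1, CHAC1 and DDIT4 both azoles lie below 0 and 2,4-D near it, while for PTX3 and ARRDC4 all 3 chemicals lie below 0.

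Between the azoles, each against its own lower concentrations, 3 probe sets differed of 54613 (0.00549%, adjusted over 3 pairs of compounds and all probe sets). Of the 130 pooled calls, 0 differed in this fit. The pooled test favours changes alike in both azoles, so this 0 is a description. DDIT4, among the 130, differed in limma with equal array medians (-0.41, adjusted p = 0.035) and without fenbuconazole 10 µM replicate 3 (-0.45, adjusted p = 0.041). It also did so after removal of dim probe sets (-0.39, adjusted p = 0.026) and with each gene reduced to 1 probe set (-0.39, adjusted p = 0.029). In the other settings DDIT4 was not called. CPT1A, which carries fatty acids into mitochondria, differed in 2 probe sets by -0.71 (95% interval -0.93 to -0.49, adjusted p = 7.26e-04) and -0.96 (interval -1.33 to -0.60, adjusted p = 0.0199). The arrays of the latter read 6.29, 6.56 and 6.17 at 10 µM imazalil against 5.17 to 6.21, and 3.92, 4.82 and 4.74 at 10 µM fenbuconazole against 3.86 to 5.16. CPT1A thus stood higher in imazalil (0.77) and not in fenbuconazole (-0.19). NUDC, a dynein-associated protein, differed by 0.70 (interval 0.43 to 0.97, adjusted p = 0.0267) in 1 probe set, whose mean levels of 2.67 and 3.03 in the fenbuconazole and imazalil sets lay below the set medians of 2.76 and 3.34. That probe set is near background and dropped out when dim probe sets were left out, and the other NUDC probe sets were not called. The count was 1 without imazalil replicate 1, and 0 and 1 without replicate number 3 and 2. The 1 call without replicate number 2 was another probe set, with no symbol, so that CPT1A and NUDC were not called there either.

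The absence of a call here does not show equal action. The interval of fenbuconazole minus imazalil ran from -0.61 to -0.22 for TRIB3, from -0.59 to -0.14 for PCK2, from -0.49 to -0.16 for EGR1 and from -0.54 to -0.23 for DDIT4, none of them past the threshold after adjustment (adjusted p = 0.255, adjusted p = 0.571, adjusted p = 0.341 and adjusted p = 0.0827). It held 0 for INSIG1 (-0.18 to 0.31), RAB33A (-0.25 to 0.35) and CHAC1 (-0.43 to 0.02). Against 2,4-D, fenbuconazole differed for 9 probe sets (0.0165%), 8 of them lower (0.0146%), which were 2 of EGR1 and 1 each of DDIT4, PCK2, CHAC1, TRIB3, ATF3 and CTH. Imazalil differed from 2,4-D for 1 probe set (0.00183%), of CPT1A.

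A graded course was not called below 10 µM. A slope on log10 concentration over the 48 arrays from 0.001 to 3 µM was called for 0 probe sets in limma (2801 had an unadjusted p under 0.05, and the smallest adjusted p was 0.802). Among the 87 probe sets that fell at 10 µM, 59 had a slope above 0 below that concentration (67.8%, against 50.8% of all probe sets), and 14 of the 17 with an unadjusted p under 0.05 did, against 1524 of 2801 of all probe sets. PCK2 stood at 0.30 ± 0.12 (SD, n = 3) at 3 µM fenbuconazole and at -0.68 ± 0.19 at 10 µM, relative to the mean of the lower arrays of each replicate. TRIB3 went from 0.16 ± 0.12 to -0.74 ± 0.13. In imazalil these genes stood at 0.01 ± 0.04 and -0.05 ± 0.11 at 3 µM.

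EGR1 stood at -0.21 ± 0.07 (SD, n = 3) at 3 µM fenbuconazole and -0.70 ± 0.08 at 10 µM, and at -0.08 ± 0.07 and -0.37 ± 0.09 in imazalil. INSIG1 stood at 0.17 ± 0.10 at 3 µM fenbuconazole and 0.05 ± 0.02 at 3 µM imazalil, and at 0.41 ± 0.15 and 0.34 ± 0.09 at 10 µM. Averaged over the 16 regulators of the amino acid response, fenbuconazole stood at 0.06 ± 0.03 at 3 µM and -0.32 ± 0.03 at 10 µM, imazalil at -0.05 ± 0.07 and -0.14 ± 0.04, and 2,4-D at 10 µM at -0.07 ± 0.09. Over the 17 cholesterol enzymes, fenbuconazole stood at 0.13 ± 0.04 at 10 µM, imazalil at 0.06 ± 0.03 and 2,4-D at 0.03 ± 0.05.

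**Figure D4:**
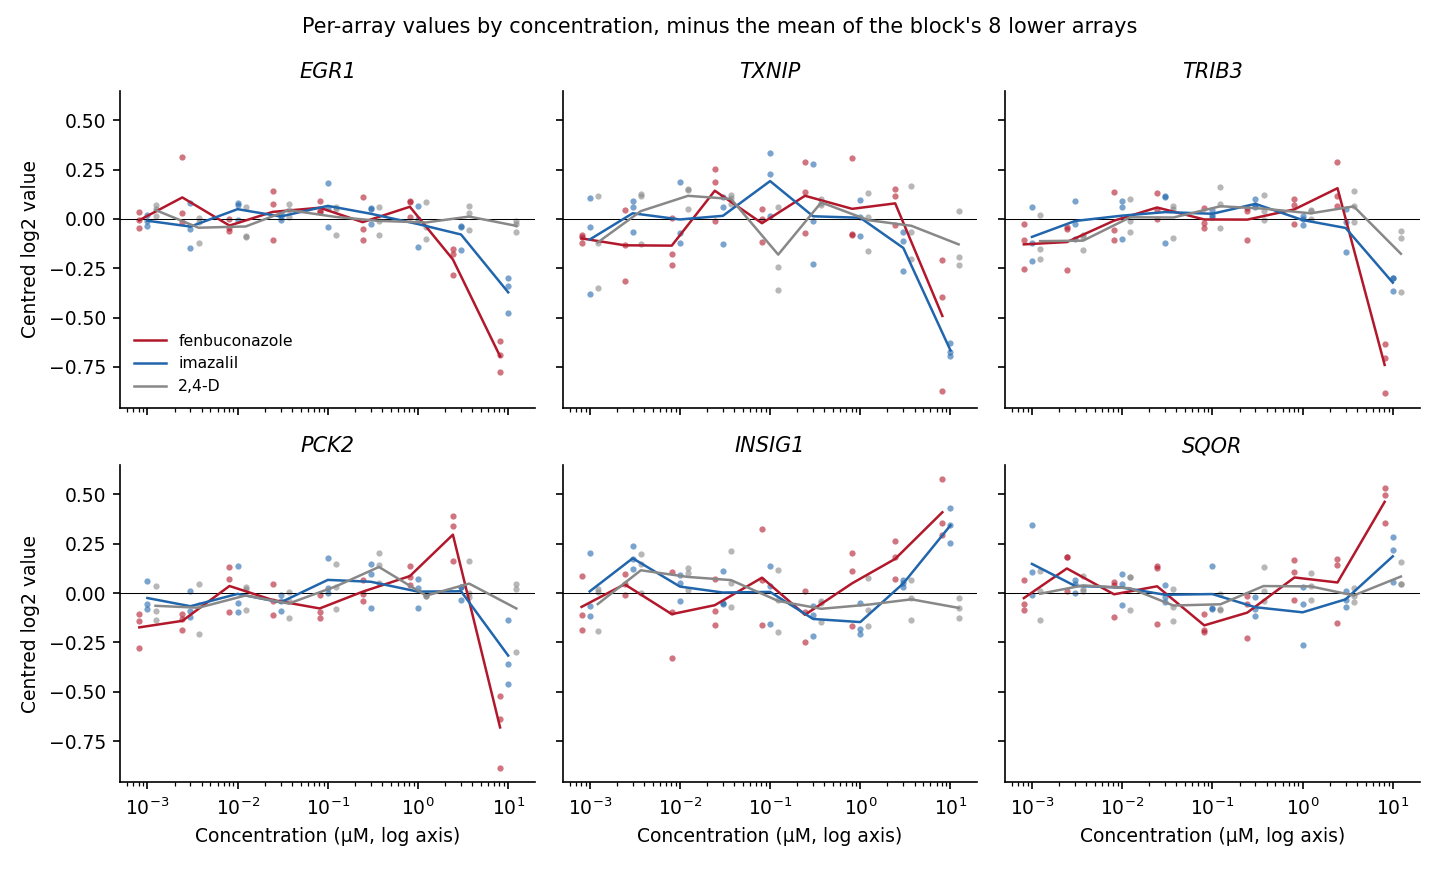
Log2 value of each array minus the mean of the 8 lower arrays of the same set and replicate, against concentration (µM, log axis), for 6 genes. Points are arrays, lines join the means of 3, and the chemicals are offset slightly along the axis. The azoles leave 0 at 10 µM, EGR1 and INSIG1 in fenbuconazole already lean at 3 µM, and 2,4-D stays closer to 0.

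Genes that respond to foreign chemicals through receptors gave no call. Among 10 genes of the aryl hydrocarbon receptor and 13 of the receptors CAR and PXR 0 were called, with medians of -0.01 and 0.02. CYP1A1 stood at -0.10 (95% interval -0.25 to 0.05), CYP1B1 at -0.05 and ABCB1, the efflux pump that PXR raises, at 0.06. HMOX1, the haem oxygenase, stood at 0.16 (adjusted p = 0.564), and PDK4, a PPAR target, at -0.01. Of 20 targets of NRF2, the antioxidant factor, 15 were higher, and the 1 called member, SLC7A11, fell and also belongs to the transporters. Lists of fatty acid synthesis, heat shock, lysosomes, hypoxia, cell cycle, histones, ribosomal proteins and the respiratory chain held 0 calls, and GADD45A, at -0.17, was the 1 called of 15 genes of the p53 response. With 1 probe set per gene, 0.268% of all genes were called lower.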

How the data were processed

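The authors deposited log2 values made with Partek by robust multi-array averaging (RMA), which they applied to each chemical's 30 columns on its own (versions: not given in the sources used here). Quantile normalization within a set can shrink changes that most probe sets share, and levels cannot be compared across sets. Groups and replicate numbers came from the labels. Of 54715 probe sets, 102 manufacturer's controls were left out. In the platform annotation 40914 had 1 symbol, 864 several and 12835 none, and only the first were named. The number of arrays limits the precision.

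Changes were tested with limma 3.58.1 in R 4.3.3 (lmFit, eBayes) with Benjamini-Hochberg adjustment at 0.05. The main fit held 54 arrays, 6 fixed blocks of set by replicate number and 47 residual degrees of freedom. Contrasts between chemicals used 81 arrays and 9 blocks. Named were up to 15 genes per direction with the largest pooled change among those called, those called between compounds (up to 5 per direction), the called and next 2 members of each of 34 lists with a call, and, called or not, ABCB1, CYP1A1, CYP1B1, CYP51A1, DDIT3, HMGCS1, HMOX1, INSIG1, PDK4 and SQLE. ATF4, ATF5, DUSP6, FOS, HSPA5, JUN, MLX, MLXIP, MYC, PHGDH, PPP1R15A, SGK1, SHMT2, SLC6A6 and XBP1 were named outside this rule, after their values were seen. In lists, a gene was its probe set with the highest mean. The members and lists were chosen with earlier results of these data known.

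By the study's methods, each replicate was an experiment of its own with another batch of cells. Deviations of same-numbered arrays correlated at a mean r of 0.051 and 0.074 in fenbuconazole and imazalil, with single pairs below 0, and 24 and 26 of 27 arrays were closest to their own number. No label calls a number a batch. The scripts were tested on simulated data. Alternatives were other blocks, left-out arrays, references, moderation, weights, normalizations and filters. Promoters were RefSeq's (GRCh38.p14). Figures used matplotlib 3.10.9 and pandas 2.3.3 in Python 3.11.15.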

Additional observations from a re-analysis of the deposited data

Results flagged for a closer look

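Each of the following was called in a test of the difference itself between chemicals at 10 µM, each chemical against its own 8 lower concentrations. Fenbuconazole minus imazalil was -0.71 and -0.96 for 2 probe sets of CPT1A, which carries fatty acids into mitochondria, and 0.70 for 1 probe set of NUDC whose mean level lay below the median of both sets. The azole mean minus 2,4-D was -0.50 in each of 2 probe sets of EGR1, -0.43 for DDIT4 and -0.49 for CHAC1.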

How the results depend on the processing

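All 130 pooled calls kept their sign in every setting in which they were tested, and 10 were called in all of them: 3 probe sets each of TXNIP and EGR1, and 1 each of ETV5, TRIB3, CHAC1 and SLC6A6. The pooled count was 53 with no replicate block, 64 with the replicate block as a random effect, 64 against the 5 lowest concentrations and 75 with array weights, and leaving out arrays or replicate numbers gave 17 to 143. Other settings gave 104 to 180. The test for both azoles, with 0 calls, gave 1 against the 5 lowest concentrations, with array weights, with 1 variance per chemical set and with each azole fitted alone, 2 with DMSO added to the reference, with trend and robust moderation, with equal array medians and with dim probe sets left out, and 0 to 2 with arrays left out. Fenbuconazole minus imazalil, with 3 calls, gave 1 with array weights and 0 to 5 with arrays left out. The azoles minus 2,4-D, with 4, gave 0 with no replicate block and with the block as a random effect, 2 against the 5 lowest concentrations and with equal array medians, and 0 to 5 with arrays left out. The cause was not tested. The slope gave 0 throughout. Of the single-gene values 714 kept their side of the threshold and the others no longer passed. Of the genes that passed in the main fit 0 reversed, and a change of sign in the other genes was not counted. Fitting each azole alone and leaving out fenbuconazole 0.01 µM replicate 1 were chosen after seeing the data. The smallest change that passed in the pooled test of 6 against 48 arrays was 0.16.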
